A study of Rattus norvegicus with 9 samples.

Results

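The proteasome genes of rat dorsal root ganglia (DRG), the sensory ganglia beside the spinal cord, were followed here across naive, sham-operated and spinal cord injury (SCI) animals. Members were the symbols of the deposited table that begin with Psma to Psmg and a digit and that reached 1 CPM, a count scaled to the library total, in at least 3 of 9 libraries. Of 48 matching symbols, 45 passed, out of 30446 genes in the table, and all 45 were among the 16627 genes tested. Psmc3ip, which is among them, carries the name of a proteasome gene because its protein binds Psmc3, but it is a factor of meiotic recombination. It is described apart, which leaves 44 known proteasome proteins.

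All animals were male Sprague-Dawley rats with no transgene named, and the ganglia T12 to L6 of both sides were taken. The labels give day 30 for all groups, naive included. The naive group had no operation named, the sham group is labelled as sham, and the SCI group as spinal cord injury, with no model or severity given. Each group had 3 libraries, which the series calls biological replicates, and the labels do not say whether a library held 1 animal or several.

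The 26S proteasome degrades proteins that carry ubiquitin chains. Its 20S core is a barrel of alpha and beta rings, in which the alpha subunits form the gate and the beta subunits Psmb5, Psmb6 and Psmb7 cut the chain. Interferon gamma induces Psmb8, Psmb9 and Psmb10, which replace those subunits in the immunoproteasome and favour peptides for MHC class I. The 19S particle caps the core, binds and removes ubiquitin and unfolds the substrate with a ring of ATPases. In neurons the proteasome is known for the turnover of synaptic and axonal proteins.

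Library totals ran from 16724878 to 32060538 counts. Levels in CPM are not per gene length, so they were compared between libraries and not between genes. Markers of sensory neurons were abundant in every library (Tubb3 at 3027 to 4354 CPM, Prph at 2336 to 3597), as the tissue label has it. The naive libraries stood apart across the table: 23.9% of tested genes were higher and 24.6% lower in SCI than in naive at an adjusted p under 0.05 (edgeR's quasi-likelihood test, Benjamini-Hochberg adjustment over all genes tested), and 24.7% and 25.9% in sham. Between SCI and sham 0% of genes passed. The labels name no batch, so a batch that held only the naive libraries and the operation itself cannot be told apart.

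Most proteasome genes were higher in sham and SCI than in naive, and none passed the test between SCI and sham. Of the 44 proteins, 29 rose and 5 fell in SCI against naive, beside the 23.9% and 24.6% of all tested genes, and 10 did not pass. In sham against naive 29 rose and 4 fell, beside 24.7% and 25.9%, and 11 did not pass. The median log2 change of the 44 was 0.23 in SCI and 0.29 in sham, beside 0.01 and 0.0005 for all genes tested. Both comparisons use the same naive libraries, so their likeness is partly built in. Summed over the 44 genes, naive libraries held 5558 to 5705 CPM, sham libraries 6218 to 6625 and SCI libraries 6025 to 6482. Every sham and SCI library thus lay above every naive library.

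**Figure D1:**
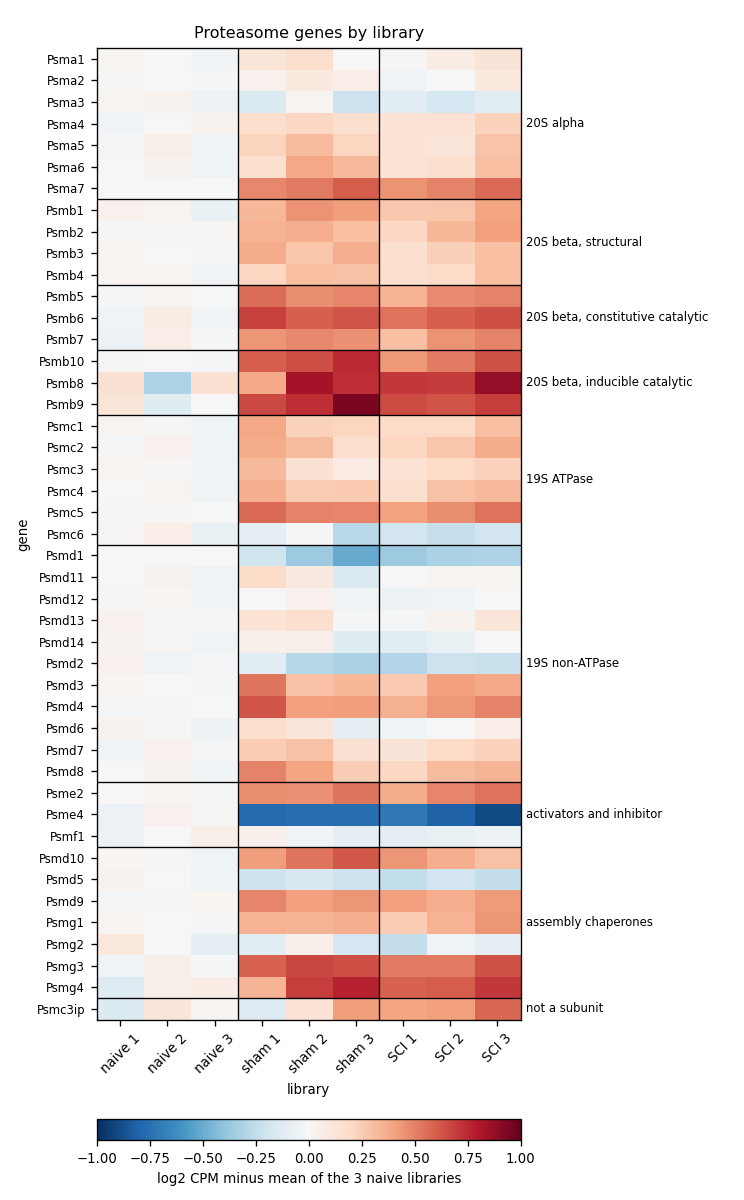
Each row is a proteasome gene and each column a library, and colour gives log2 CPM minus the mean of the 3 naive libraries (red higher, blue lower). The beta subunits are red in all sham and SCI libraries, and Psme4 is the bluest row there (log2 change against naive of -0.80 in SCI and -0.76 in sham).

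Against sham, none of the 45 genes passed the test in SCI. The count was 0 with edgeR, 0 with DESeq2 and 0 with limma-voom. In these 3 tools 0 of the 44 proteins had an unadjusted p under 0.05. Of all genes, 3.16% (526) did in edgeR, 2.27% in DESeq2 and 3.36% in limma-voom. With shares this small, 0 of 44 does not set the members apart from all genes. Over all 16627 genes edgeR called 0, DESeq2 called 9 and limma-voom called 0, and edgeR without sham 3 called 22, of which 0 were members. Of the 44 proteins 40 had a log2 change below 0 in SCI against sham, beside 8368 of all 16627 genes. The median of the 44 was -0.05 beside -0.0008 for all genes, and it was -0.02 without SCI 1. Between replicates the median level of these genes had an SD of 0.04 on the log2 scale. All 44 were measured in the same libraries, so they are not separate observations of a shift. Sham and SCI libraries overlapped for every one of the 45 genes. The share of all tested genes was not worked out, here or for later statements that groups lay apart. Such overlap or separation is therefore not shown to be a trait of proteasome genes. The 3 genes with the smallest p, none of which passed, were Psmc3ip, Psmb10 and Psmd10. Psmb10 differed by -0.13 ± 0.07 (SE) in SCI against sham (unadjusted p = 0.0816), and Psmd10 by -0.15 ± 0.08 (unadjusted p = 0.0909), and both had an adjusted p of 1. A p that misses the threshold does not show that sham and SCI were the same.

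The clearest class was the catalytic beta subunits, all of which were higher outside naive. Psmb5, which cuts after hydrophobic residues, stood at 152, 157 and 154 CPM in naive, 227, 213 and 216 in sham and 197, 214 and 217 in SCI. Its log2 change against naive was 0.44 ± 0.06 in SCI and 0.50 ± 0.06 in sham (adjusted p = 9.74e-05 and 2.79e-05), with SE after the ± sign here and below. Psmb6, which cuts after acidic residues, stood at 101, 109.9 and 102 CPM in naive, 168, 158 and 162 in sham and 152, 158 and 163 in SCI. No sham or SCI library came down to the naive range for either gene. The log2 change of Psmb6 was 0.59 ± 0.06 in SCI and 0.64 ± 0.06 in sham (adjusted p = 8.58e-06 and 3.93e-06), or 1.51-fold and 1.56-fold. Psmb7, which cuts after basic residues, stood at 148, 161 and 153 CPM in naive, 208, 214 and 211 in sham and 189, 210.3 and 216 in SCI, a log2 change of 0.42 ± 0.07 in SCI and 0.46 ± 0.07 in sham (adjusted p = 0.000248 and 0.000101). SCI 1 was the lowest library outside naive for all 3 genes.

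The inducible partners rose as well, from much lower counts. Psmb8, the partner of Psmb5, stood at 4.45, 3.24 and 4.47 CPM in naive, 5.22, 7.14 and 6.697 in sham and 6.55, 6.53 and 7.37 in SCI. It varied most of all members within the naive group (coefficient of variation 17.3%), where naive 2 lay below the others, and its log2 change was 0.75 ± 0.16 in SCI and 0.64 ± 0.16 in sham (adjusted p = 0.00145 and 0.00467). Psmb9, the partner of Psmb6, stood at 7.85, 6.64 and 7.23 CPM in naive, 11.4, 12.02 and 13.9 in sham and 11.4, 11.2 and 11.6 in SCI, a log2 change of 0.66 ± 0.11 in SCI and 0.78 ± 0.11 in sham (adjusted p = 0.000234 and 5.35e-05). Psmb10, the partner of Psmb7, stood at 28.8, 28.6 and 28.4 CPM in naive, 43.2, 44.6 and 48.02 in sham and 38.6, 40.9 and 44.5 in SCI. The naive values of Psmb10 lay close together and below all others, with a log2 change of 0.53 ± 0.07 in SCI and 0.66 ± 0.07 in sham (adjusted p = 5.96e-05 and 8.49e-06). For all 3 genes the naive libraries lay below all others, and sham 3 held the highest value of Psmb9 and Psmb10.

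**Figure D2:**
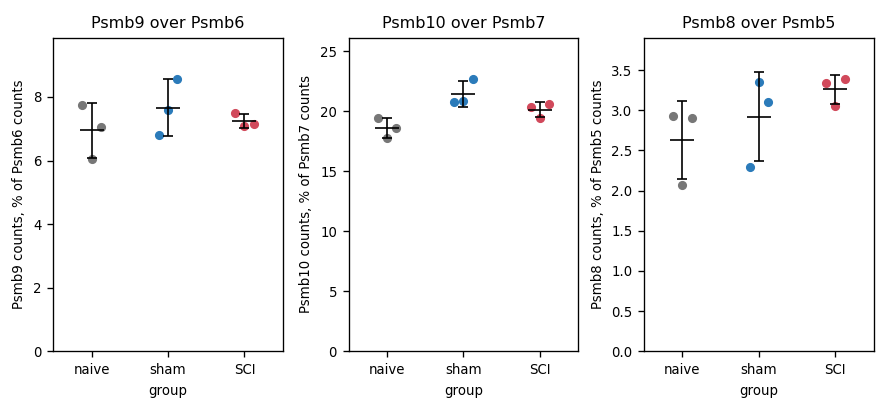
Points are the read counts of each inducible subunit as a percent of those of its constitutive partner in 1 library, with the group mean and SD (n = 3). All groups overlap for Psmb9 over Psmb6, sham lies above naive for Psmb10 over Psmb7, and SCI lies above naive for Psmb8 over Psmb5.

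A ratio within a library does not depend on the scaling of the libraries, and these ratios moved less than the levels did. Reads of Psmb9 came to 6.95% ± 0.86 (SD, n = 3) of those of Psmb6 in naive, 7.66% ± 0.90 in sham and 7.24% ± 0.22 in SCI. Reads of Psmb8 came to 2.63% ± 0.49 of those of Psmb5 in naive, 2.92% ± 0.55 in sham and 3.26% ± 0.18 in SCI. In SCI the lowest library (3.05%) was above the highest naive one (2.92%), while sham overlapped both. Reads of Psmb10 came to 17.8% to 19.5% of those of Psmb7 in naive, 20.8% to 22.7% in sham and 19.4% to 20.6% in SCI, so that sham lay apart from naive and SCI overlapped it. With 3 libraries against 3 an exact permutation test cannot go below a two-sided p of 0.1, so these ratios were not tested.

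Genes of MHC class I presentation and of the interferon gamma response, which are known to be induced with the immunoproteasome, were called about as often as all genes. Of 10 tested, 3 rose and 3 fell in SCI against naive (30% each, beside 23.9% and 24.6% of all genes), and 3 rose and 3 fell in sham (beside 24.7% and 25.9%). B2m, the light chain of MHC class I, rose with a log2 change of 0.38 ± 0.08 in SCI and 0.41 ± 0.08 in sham (adjusted p = 0.00141 and 0.000822), and Irf1, a transcription factor of the interferon response, with 0.35 ± 0.10 in SCI and 0.39 ± 0.10 in sham (adjusted p = 0.0126 and 0.00607). Calr, a chaperone of MHC class I loading, rose by 0.21 and 0.24. Erap1, which trims the peptides, fell by 0.53 in SCI and by 0.68 in sham. The transporter gene Tap1, a neighbour of Psmb9 in the MHC, stood at 23.2, 20.7 and 22.1 CPM in naive, 24.1, 20.2 and 24.95 in sham and 22.3, 23.3 and 25.01 in SCI, with log2 changes of 0.10 in SCI (adjusted p = 0.396) and 0.08 in sham (adjusted p = 0.506). The groups overlapped for Tap1, whereas Psmb8, Psmb9 and Psmb10 lay above the naive range in all sham and SCI libraries.

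Markers of other cells moved with the same contrast. Their counts stand beside 23.9% of all genes higher and 24.6% lower in SCI against naive, and 24.7% and 25.9% in sham. Of 7 macrophage markers 5 rose in each comparison with naive, with summed levels of 267 to 342 CPM over the naive libraries, 400.4 to 568 over sham and 481 to 514 over SCI. Of 4 satellite glia markers 3 rose (3790 to 3864 CPM summed in naive, 6703 to 8774 in sham, 6524 to 7713 in SCI). Most of this sum came from Apoe (means of 3390, 6946 and 6667 CPM in naive, sham and SCI), which macrophages also express. Glul did not pass (0.02 in SCI and -0.04 in sham). Of 5 Schwann cell markers 4 fell (29390 to 31140, 17320 to 21540 and 18760 to 22770 CPM). Of 8 sensory neuron markers 3 rose and 1 fell (22420 to 23270, 22510 to 32400 and 24760 to 25560 CPM). The 4 T cell markers summed to 17.03 to 22.6 CPM in naive, 25.8 to 41.3 in sham and 31.3 to 32.95 in SCI, of which most came from Cd4, which macrophages also express. Cd4 rose in both comparisons (0.71 in SCI and 0.80 in sham, adjusted p = 0.0011 and 0.000426). Cd8a, at 0.0735 to 1.001 CPM, rose in SCI against naive (1.03, adjusted p = 0.0478) and did not pass in sham (-0.28, adjusted p = 0.664). It was also higher in each SCI library than in any sham library (1.31, unadjusted p = 0.0124, adjusted p = 1). Cd3e and Cd3d were too low to be tested (at most 0.417 and 0.471 CPM). Of 5 skeletal muscle markers tested 4 rose in sham (86.8 to 104 CPM summed, 39.7 to 58.4 in naive) and 0 in SCI (42.9 to 64.4). Of 3 erythroid markers 1 fell in SCI and 3 in sham. The endothelial marker Cdh5 stood at 48.6 to 68.5 CPM and passed in neither comparison (0.16 and 0.18), and Cldn5 was listed at 0 in all libraries. Of the genes listed as spinal cord glia markers, Gfap is also expressed by satellite glia of the ganglion, so it does not mark cord tissue alone. Gfap (22.0 to 47.2 CPM) and Mog (3.97 to 5.54 CPM) fell in sham by 0.68 and 0.36 (adjusted p = 0.000813 and 0.0334). They stood at -0.30 and -0.21 in SCI, where neither passed, and Olig2 was at most 0.0321 CPM. The part of these cells in the proteasome values was not tested. In these ganglia, measured in bulk, fewer cells of a type and less RNA per cell cannot be told apart.

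The 4 beta subunits that do not cut were all higher too. Psmb1 stood at 211, 209 and 196 CPM in naive, 258, 280.2 and 275 in sham and 247, 249 and 269 in SCI, a log2 change of 0.31 ± 0.07 in SCI and 0.40 ± 0.07 in sham (adjusted p = 0.00164 and 0.000248). Psmb2 stood at 71.2, 72.7 and 72.96 CPM in naive, 91.9, 92.96 and 89.2 in sham and 83.6, 91.1 and 96.2 in SCI, a log2 change of 0.32 ± 0.06 in SCI and 0.34 ± 0.06 in sham (adjusted p = 0.00104 and 0.000641). For both genes every naive library lay below every other library. Psmb3 and Psmb4 changed by 0.23 and 0.22 in SCI (adjusted p = 0.00683 and 0.0106) and by 0.34 and 0.27 in sham (adjusted p = 0.000537 and 0.00303). The call of Psmb4 in SCI was lost without naive 3 (adjusted p = 0.0614) or SCI 3 (0.0628). All 10 beta subunits therefore rose in both comparisons, beside 23.9% and 24.7% of all genes.

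The alpha ring was less uniform, with 4 of 7 genes higher in each comparison and 0 lower. Of all genes, 23.9% were higher and 24.6% lower in SCI, and 24.7% and 25.9% in sham. Psma7 stood at 156, 157 and 157 CPM in naive, 218, 224 and 238 in sham and 214, 221 and 232 in SCI. Its naive values differed by no more than 1 CPM, and its log2 change was 0.51 ± 0.06 in SCI and 0.53 ± 0.06 in sham (adjusted p = 2.96e-05 and 1.57e-05), the largest of the ring. Psma6 stood at 142, 144 and 137 CPM in naive, 158, 184 and 177 in sham and 156, 158 and 173 in SCI, a log2 change of 0.20 ± 0.07 in SCI and 0.29 ± 0.07 in sham (adjusted p = 0.0303 and 0.00394). The ring's other higher genes were Psma4 (0.17 in SCI and 0.18 in sham, adjusted p = 0.026 and 0.0175) and Psma5 (0.18 and 0.25, adjusted p = 0.0315 and 0.00554). In SCI the calls of Psma4, Psma5 and Psma6 did not hold when single libraries were left out: without SCI 3 their adjusted p was 0.119, 0.166 and 0.143, and without naive 3 it was 0.0631, 0.133 and 0.122. Leaving out naive 1 (adjusted p = 0.103, 0.0945 and 0.0773) or naive 2 (0.0762, 0.051 and 0.059) also ended all 3 calls, and leaving out SCI 2 ended those of Psma4 (0.0548) and Psma6 (0.0522). In sham, Psma4 was lost without naive 1 (0.0716) or naive 2 (0.0526), and Psma5 and Psma6 passed whichever library was left out. Psma1 (0.07 and 0.10), Psma2 (0.02 and 0.07) and Psma3 (-0.13 and -0.11), the remaining ring members, did not pass. Psma1 passed in sham when sham 3 was left out (0.16, adjusted p = 0.0322). Thus subunits that the assembled core holds in equal number differed in RNA change, from -0.13 (Psma3) to 0.51 (Psma7) on the log2 scale in SCI.

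**Figure D3:**
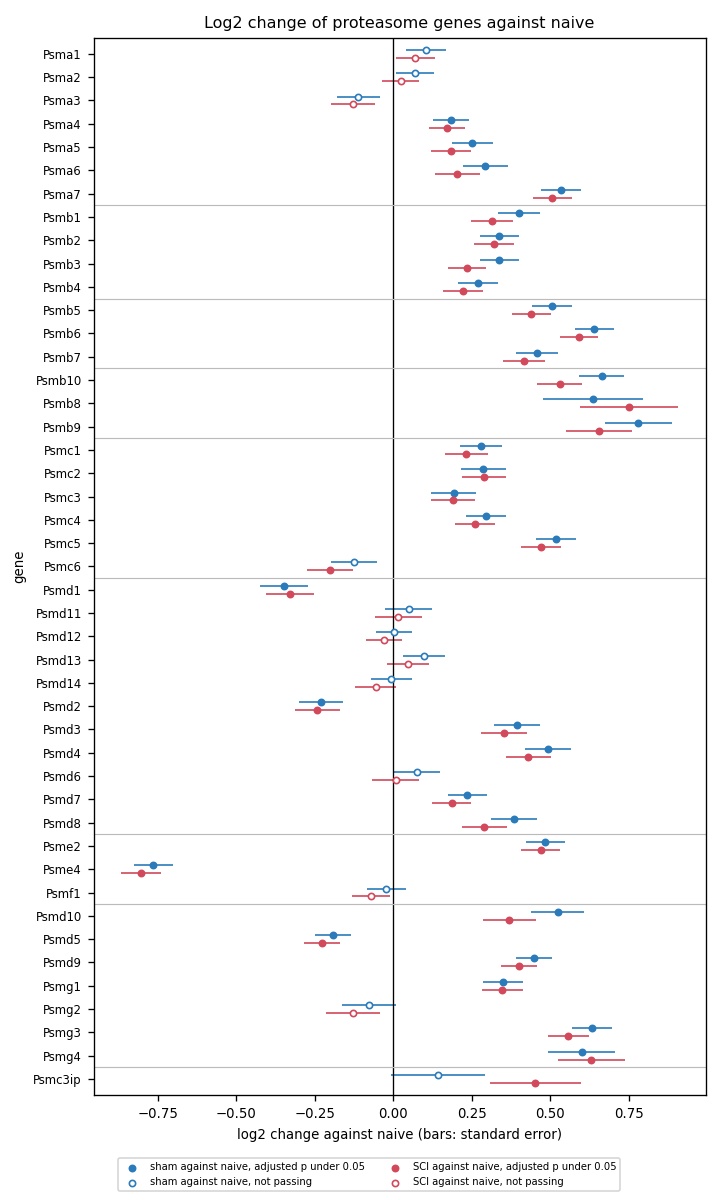
Log2 change of each proteasome gene against naive, in sham (blue) and SCI (red), with SE bars from the edgeR fit; filled points have an adjusted p under 0.05. The beta subunits lie to the right of 0 and the 19S non-ATPase genes on both sides, and Psme4 lies farthest to the left.

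Of the 6 ATPase genes of the 19S particle, whose ring unfolds substrates and opens the gate of the core, 5 rose in each comparison. That is 83.3%, beside 23.9% of all genes in SCI and 24.7% in sham. In SCI 1 fell (16.7%, beside 24.6% of all genes), and in sham 0 fell (beside 25.9%). Psmc5 stood at 232, 236 and 235 CPM in naive, 348, 332 and 328 in sham and 309.9, 323 and 341 in SCI, a log2 change of 0.47 ± 0.06 in SCI and 0.52 ± 0.06 in sham (adjusted p = 6.12e-05 and 2.25e-05). Psmc4 stood at 116, 118 and 113 CPM in naive, 149, 138 and 139 in sham and 129, 142 and 145 in SCI, a log2 change of 0.26 ± 0.06 in SCI and 0.30 ± 0.06 in sham (adjusted p = 0.00489 and 0.00198). Each of these genes was lowest in the naive libraries. Psmc1 (0.23 in SCI and 0.28 in sham), Psmc2 (0.29 and 0.29) and Psmc3 (0.19 and 0.19) also passed in both comparisons. Psmc3 was the weakest call (adjusted p = 0.0409 and 0.0372): in SCI it was lost when naive 1, naive 2, naive 3, sham 2, SCI 2 or SCI 3 was left out (adjusted p from 0.052 to 0.157), and in sham when naive 1, naive 2, naive 3, sham 1, sham 2, SCI 2 or SCI 3 was left out (from 0.0516 to 0.141). Psmc1 in SCI was lost without naive 3 (0.0717) or SCI 3 (0.0694).

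Psmc6 was the gene of this ring that fell, in SCI. It was picked for its values, with 171, 178 and 162 CPM in naive, 160.2, 168 and 140.0 in sham and 149.7, 145 and 149.5 in SCI, and its log2 changes were -0.20 in SCI (adjusted p = 0.0362) and -0.12 in sham (adjusted p = 0.176). Sham 2 lay within the naive range, sham 1 just below it, and sham 3 and all SCI libraries farther below. The call was lost without naive 1, naive 2, SCI 1, SCI 2 or SCI 3 (adjusted p from 0.0721 to 0.147), with upper-quartile scaling (0.0554) and with counts thinned to the shallowest total (0.069). Reads of Psmc5 came to 133% to 146% of those of Psmc6 in naive, 197% to 235% in sham and 207% to 228% in SCI, so every sham and SCI library lay above every naive library.

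Of the 11 non-ATPase genes of the 19S particle, 4 rose, 2 fell and 5 did not pass, in SCI as in sham. These counts (36.4% and 18.2%) lay near the shares of all genes (23.9% and 24.6% in SCI, 24.7% and 25.9% in sham), and their median log2 change was 0.02 and 0.07. The symbol rule leaves out the 19S subunits Adrm1 and Shfm1 (Sem1), which both rose (0.47 and 1.04 in SCI, 0.49 and 1.06 in sham) and are described with the partners. Psmd4, a receptor that binds ubiquitin chains, stood at 132, 134 and 134 CPM in naive, 206, 177 and 178 in sham and 171, 179 and 188 in SCI, a log2 change of 0.43 ± 0.07 in SCI and 0.49 ± 0.07 in sham (adjusted p = 0.000301 and 9.21e-05). Psmd3, a scaffold subunit of the lid, stood at 153, 151 and 149.9 CPM in naive, 219.6, 185 and 190.1 in sham and 182, 201 and 197 in SCI, a log2 change of 0.35 ± 0.07 in SCI and 0.39 ± 0.07 in sham (adjusted p = 0.00159 and 0.000666). Sham 1 was the highest library for both, and naive was the lowest group. The lid subunits Psmd8 (0.29 in SCI and 0.38 in sham) and Psmd7 (0.19 and 0.24) rose as well. Psmd7 in SCI was lost without naive 1, naive 3, SCI 2 or SCI 3 (adjusted p from 0.0788 to 0.103).

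The largest subunits of the 19S base, Psmd1 and Psmd2, fell. They are scaffolds on which ubiquitin receptors and shuttle factors dock. Psmd1 stood at 319.9, 323 and 322 CPM in naive, 281, 250.1 and 227 in sham and 251, 258 and 259 in SCI, and its log2 change was -0.33 ± 0.08 in SCI and -0.35 ± 0.08 in sham (adjusted p = 0.00292 and 0.00186). All naive values lay within 3 CPM of each other and above every other library. Psmd2 stood at 368, 349 and 354 CPM in naive, 332, 293 and 287 in sham and 292, 307 and 306 in SCI, a log2 change of -0.24 ± 0.07 in SCI and -0.23 ± 0.07 in sham (adjusted p = 0.0119 and 0.0148). It was lost in SCI without naive 1 (adjusted p = 0.0561) and in sham without naive 1 (0.0702) or sham 2 (0.0603). Within the same particle the ubiquitin receptor and the scaffold moved apart: reads of Psmd4 came to 35.8% to 38.5% of those of Psmd2 in naive, 60.4% to 62.2% in sham and 58.4% to 61.4% in SCI.

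The 5 lid genes that passed in neither comparison included Psmd14, the deubiquitinase that removes the chain before degradation. It stood at 112, 110.3 and 106 CPM in naive, 113, 113 and 101 in sham and 102, 105 and 109 in SCI, with log2 changes of -0.06 in SCI (adjusted p = 0.493) and -0.01 in sham (adjusted p = 0.935). Psmd6 (0.01 and 0.07), Psmd11 (0.02 and 0.05), Psmd12 (-0.03 and 0.00) and Psmd13 (0.04 and 0.10) did not pass either. Sham 3 was below the mean of the other sham libraries for all 11 non-ATPase genes, by a median of -0.16 on the log2 scale. Without sham 3, Psmd6 (0.16, adjusted p = 0.0364), Psmd11 (0.14, 0.0467) and Psmd13 (0.16, 0.0411) passed in sham.

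Summed by class, the core stood farther above naive than its cap did. The 17 core genes summed to 121% of the naive mean in SCI (range 116% to 127%) and 125% in sham (123% to 128%). The 17 genes of the 19S particle that match the symbol rule, without Adrm1 and Shfm1, summed to 107% in SCI (103% to 111%) and 110% in sham (103% to 117%). Reads of the core came to 63.2% ± 0.47 (SD, n = 3) of those of the 19S particle in naive, 72.4% ± 5.48 in sham and 71.2% ± 0.94 in SCI. The highest naive library was at 63.7% and the lowest of the others, sham 1, at 66.4%. Sham 1 was also the library with the highest neuronal marker sum (32400 CPM), and whether these values are linked was not tested. The catalytic subunits Psmb5, Psmb6 and Psmb7 summed to 139% of the naive mean in SCI and 144% in sham, the inducible ones to 149% and 161%, and the non-ATPase genes to 101% and 104%.

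**Figure D4:**
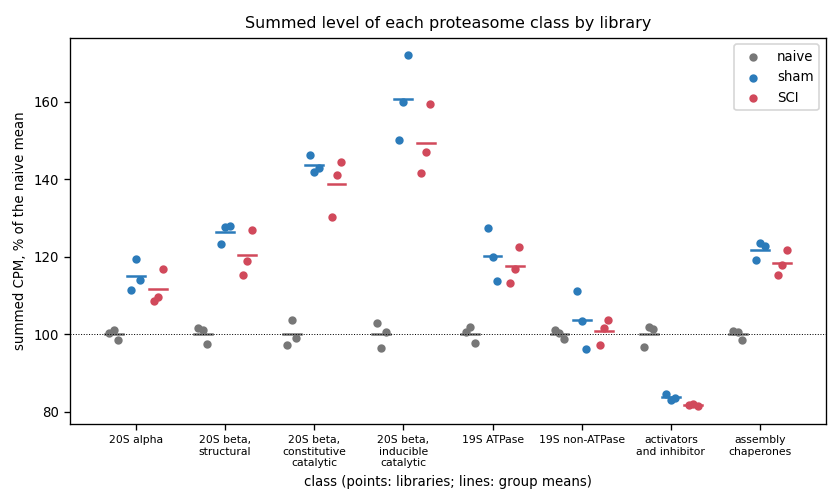
Summed CPM of each class of proteasome genes, as a percent of the naive mean, with a point for each library and a line for the group mean. Sham and SCI lie highest above naive for the catalytic beta subunits, overlap naive for the 19S non-ATPase genes, and lie below it for the activators and inhibitor.

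The regulators of the core went in opposite directions. Psme2, a subunit of the PA28 ring that opens the core without ubiquitin and is induced by interferon gamma, stood at 58.2, 58.7 and 57.2 CPM in naive, 79.97, 79.5 and 83.9 in sham and 75.1, 81.4 and 84.6 in SCI. Its log2 change was 0.47 ± 0.06 in SCI and 0.48 ± 0.06 in sham (adjusted p = 5.16e-05 and 3.4e-05), and all 3 naive libraries lay below the others. Psme4, which encodes the large single-chain activator PA200, stood at 180.4, 193 and 189.6 CPM in naive, 109.7, 111 and 111 in sham and 114, 107 and 101 in SCI. The highest sham or SCI value was 114 CPM and the lowest naive value 180.4 CPM. The log2 change of Psme4 was -0.80 ± 0.06 in SCI and -0.76 ± 0.06 in sham (adjusted p = 1.2e-06 and 1.25e-06), or 0.573-fold and 0.589-fold, the largest fall and the smallest adjusted p of all members. Reads of Psme2 came to 30.2% to 32.3% of those of Psme4 in naive, 71.9% to 75.4% in sham and 65.8% to 83.7% in SCI. Psmf1, an inhibitor that binds the core, stood at 93.4, 97.6 and 101 CPM in naive, 101, 95.3 and 91.5 in sham and 91.4, 92.7 and 94.1 in SCI, with log2 changes of -0.07 in SCI (adjusted p = 0.348) and -0.02 in sham (adjusted p = 0.781). Its groups overlapped, and its sign in sham changed to 0.02 without sham 3.

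PA28 needs Psme1 beside Psme2, and Psme1 fell under the level rule. It had 5 to 13 counts in each library, and in the same fit its log2 change was 1.14 in SCI (adjusted p = 0.0192) and 0.95 in sham (adjusted p = 0.0548). The other genes left out, Psma8 of the testis core (1 to 8 counts) and Psmb11 of the thymus core (2 to 10 counts), were near 0. The highest level among the 3 genes left out was 0.643 CPM, and the lowest level among the members was 3.24 CPM, for Psmb8 in naive 2. Psme3 was not analysed here.

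Genes of the assembly chaperones, which help to build the core and the base and leave before the particle is complete, mostly rose (5 higher and 1 lower of 7 in each comparison). That is 71.4% and 14.3%, beside 23.9% and 24.6% of all genes in SCI and 24.7% and 25.9% in sham. Psmg3, a chaperone of the alpha ring, stood at 30, 32.2 and 30.4 CPM in naive, 46.5, 49.1 and 48.1 in sham and 44.1, 44.2 and 48.1 in SCI, a log2 change of 0.56 ± 0.06 in SCI and 0.63 ± 0.06 in sham (adjusted p = 1.88e-05 and 5.8e-06). Psmd9, a chaperone of the ATPase ring, stood at 40.7, 40.5 and 41.6 CPM in naive, 57.3, 54.5 and 55.7 in sham and 54.4, 52.5 and 54.99 in SCI, a log2 change of 0.40 ± 0.06 in SCI and 0.45 ± 0.06 in sham (adjusted p = 0.000102 and 3.54e-05). Both had all naive values below all others. Psmd10, also known as gankyrin and likewise a chaperone of the ATPases, stood at 12.1, 12 and 11.7 CPM in naive, 15.9, 17.3 and 18.3 in sham and 16.2, 15.3 and 14.6 in SCI, a log2 change of 0.37 ± 0.08 in SCI and 0.52 ± 0.08 in sham (adjusted p = 0.00278 and 0.000209). Psmg4 (0.63 in SCI and 0.60 in sham), the partner of Psmg3, and Psmg1 (0.35 and 0.35) rose too, whereas Psmg2, the partner of Psmg1, did not pass (-0.13, adjusted p = 0.231, and -0.08, adjusted p = 0.473).

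Psmd5, another chaperone of the base, known also to hold base and core apart, was the exception. It stood at 55.1, 53.9 and 52.2 CPM in naive, 46.4, 47.97 and 46.6 in sham and 45.2, 46.96 and 45.5 in SCI, a log2 change of -0.23 ± 0.06 in SCI and -0.19 ± 0.06 in sham (adjusted p = 0.00534 and 0.0134). Every naive library lay above every other library. Its call in sham was lost without naive 1 (adjusted p = 0.0612) or naive 2 (0.0507), and that in SCI was kept whichever library was left out. Among the genes that fell in both comparisons were thus the alternative cap Psme4, the scaffolds Psmd1 and Psmd2 and the chaperone Psmd5, and 0 of them belonged to the core.

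Psmc3ip, the gene that is no proteasome subunit, stood at 3.98, 4.75 and 4.43 CPM in naive, 4.004, 4.82 and 5.85 in sham and 5.75, 5.83 and 6.504 in SCI. Naive and SCI did not overlap, sham spanned both, and the log2 changes were 0.45 in SCI (adjusted p = 0.0197) and 0.14 in sham (adjusted p = 0.453). Against sham it was 0.31 ± 0.15 higher in SCI (unadjusted p = 0.0579, adjusted p = 1). The call against naive was lost without naive 1 (0.0752), naive 3 (0.0532) or SCI 3 (0.073) and with counts thinned to the shallowest total (0.0935), and the difference between sham and naive turned to -0.01 without sham 3.

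The median coefficient of variation of the 44 genes came to 2.44% over the naive libraries, 5.21% over sham and 4.79% over SCI, beside 5.63%, 11.6% and 6.42% for all tested genes. The 2 sets were not matched for level, and low counts raise this value, so the gap is not shown to be a trait of proteasome genes. Psmb8, the member with the lowest level, varied most in naive (17.3%) and in sham (15.9%). SCI 3 was above the mean of the other SCI libraries for all 7 alpha, all 6 ATPase and all 11 non-ATPase genes, by medians of 0.10, 0.10 and 0.07 on the log2 scale. Sham 1 lay above the other sham libraries for the 19S genes (median 0.17 for the non-ATPase genes and 0.12 for the ATPases), and its median for the alpha ring was -0.04. The sham libraries thus fell in another order for the alpha ring than for the 19S particle.

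Promoters were examined because so many members moved together. The stretch from 250 bases before to 50 bases after the RefSeq start site (assembly GRCr8) was at hand for 40 of the 44 genes. It was searched on both strands for TGACNNNGC, the core of the antioxidant response element that the transcription factor Nfe2l1 (Nrf1) is known to use at proteasome genes, for CCAAT, which the factor NF-Y is known to bind, for CGGAAG, which ETS factors bind, and for GGGCGG, which the factor Sp1 binds. The 250 bases before the start site of 2 genes that rose and 2 that fell are shown, 5′ to 3′ on the gene's strand, because all 4 hold the Nfe2l1 letters, which are in capitals.
Psmb6 (chr10:55737638-55737887, + strand): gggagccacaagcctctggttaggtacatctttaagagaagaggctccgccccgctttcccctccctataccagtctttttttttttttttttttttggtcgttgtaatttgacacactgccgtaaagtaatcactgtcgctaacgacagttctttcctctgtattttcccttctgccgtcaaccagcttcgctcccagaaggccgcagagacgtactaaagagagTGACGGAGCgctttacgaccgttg
Psmb5 (chr15:32047380-32047629, - strand): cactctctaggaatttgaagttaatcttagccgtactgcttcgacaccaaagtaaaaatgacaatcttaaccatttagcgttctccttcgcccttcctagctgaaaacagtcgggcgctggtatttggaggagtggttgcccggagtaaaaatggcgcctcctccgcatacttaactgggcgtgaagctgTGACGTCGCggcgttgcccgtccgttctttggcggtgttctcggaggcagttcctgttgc
Psme4 (chr14:108706393-108706642, + strand): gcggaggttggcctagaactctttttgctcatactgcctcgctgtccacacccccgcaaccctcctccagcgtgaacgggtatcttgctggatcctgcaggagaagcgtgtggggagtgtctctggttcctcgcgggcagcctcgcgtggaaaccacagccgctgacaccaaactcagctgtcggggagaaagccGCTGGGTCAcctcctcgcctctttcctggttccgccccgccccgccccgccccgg
Psmd1 (chr9:94157721-94157970, + strand): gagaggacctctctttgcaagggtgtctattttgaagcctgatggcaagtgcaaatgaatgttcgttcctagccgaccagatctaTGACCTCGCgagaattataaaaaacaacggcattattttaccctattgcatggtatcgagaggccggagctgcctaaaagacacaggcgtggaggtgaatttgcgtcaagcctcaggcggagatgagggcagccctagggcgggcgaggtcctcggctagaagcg
In Psme4 the capitals read TGACNNNGC on the other strand, and in Psmd1 a further match lies after the start site, outside the printed bases.

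TGACNNNGC stood in 8 of the 40 promoters (20%), beside 12.2% of 27457 RefSeq promoters of the same length and 14.5% of the 11213 that belong to tested genes. They were those of Psma3, Psmb2, Psmb5, Psmb6, Psmd1, Psmd3, Psmd9 and Psme4. With the calls of SCI against naive, 5 of 28 genes that rose and 2 of 5 that fell held it, so the letters were found on both sides. CCAAT stood in 20 of 40 (50%, beside 36.9% for tested genes), in 15 of 28 that rose and in 0 of 5 that fell. CGGAAG stood in 20 of 40 (50%, beside 27.4%), in 16 of 28 and 2 of 5, and GGGCGG in 28 of 40 (70%, beside 58.9%), in 19 of 28 and in 5 of 5. The motifs can overlap each other, a match is not a site of binding, and no match says only that these letters are not in this window.

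Beyond the subunits, a list of 28 partners (ubiquitin genes, receptors, shuttles, deubiquitinases, and factors that regulate or remodel the proteasome) gave 26 tested genes. Of these, 5 rose and 11 fell in SCI against naive (19.2% and 42.3%, beside 23.9% and 24.6% of all genes). In sham 8 rose and 11 fell (30.8% and 42.3%, beside 24.7% and 25.9%). Against sham, 0 passed in SCI with edgeR, and 1 had an unadjusted p under 0.05. The list holds Adrm1 and Shfm1, 19S subunits that the symbol rule leaves out, so partners and subunits are not cleanly separate sets.

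Among the partners that rose were 2 stable subunits of the 19S particle. Shfm1, the older symbol of Sem1, a small subunit of the lid, stood at 42.9, 40.2 and 40.4 CPM in naive, 66.7, 86.2 and 105 in sham and 82.4, 82.1 and 88.7 in SCI, a log2 change of 1.04 ± 0.12 in SCI and 1.06 ± 0.12 in sham (adjusted p = 2.05e-05 and 1.39e-05). Adrm1, a ubiquitin receptor of the base, stood at 97.8, 101 and 96.7 CPM in naive, 148, 127 and 140.3 in sham and 132, 138 and 138 in SCI, a log2 change of 0.47 ± 0.07 in SCI and 0.49 ± 0.07 in sham (adjusted p = 9.67e-05 and 5.38e-05). Both lay above the naive range in all sham and SCI libraries. Reads of the ubiquitin gene Rps27a (0.39 in SCI and 0.40 in sham) may be split with near-identical copies, so its value is uncertain.

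Among the 11 partners that fell were the following. Ddi2, the protease that cuts Nfe2l1 into its active form, stood at 103, 104 and 101 CPM in naive, 73.5, 68.3 and 69.4 in sham and 74.5, 73.3 and 68.6 in SCI, a log2 change of -0.50 ± 0.06 in SCI and -0.54 ± 0.06 in sham (adjusted p = 2.12e-05 and 1.05e-05). AI314180, an older symbol of Ecpas, whose protein ties the core to its cap, stood at 242, 241 and 225 CPM in naive, 163, 171 and 151 in sham and 165, 160.2 and 161 in SCI, a log2 change of -0.54 ± 0.07 in SCI and -0.55 ± 0.07 in sham (adjusted p = 2.55e-05 and 1.92e-05). Akirin2, an adaptor for the import of proteasomes into the nucleus, stood at 79.6, 78.8 and 78.3 CPM in naive, 56.6, 60.6 and 57.7 in sham and 56.8, 59.4 and 61.9 in SCI, a log2 change of -0.41 ± 0.06 in SCI and -0.44 ± 0.06 in sham (adjusted p = 9.96e-05 and 5.35e-05). All 3 were lower in each sham and SCI library than in any naive library. Usp14, a deubiquitinase at the proteasome (-0.27 and -0.29), Vcp, the unfoldase that prepares substrates (-0.33 and -0.33), Ngly1, which deglycosylates Nfe2l1 (-0.31 and -0.31), and the ubiquitin-activating enzyme Uba1 (-0.32 and -0.38) passed in both comparisons as well.

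The transcription factor Nfe2l1 itself stood at 292, 301 and 303 CPM in naive, 369.7, 333 and 319 in sham and 332, 327 and 336 in SCI, with log2 changes of 0.15 in SCI (adjusted p = 0.0838) and 0.19 in sham (adjusted p = 0.0328). Every naive library was below every other, but the difference passed the test in sham and not in SCI. The call in sham was lost when naive 1, naive 2, naive 3, sham 1, SCI 2 or SCI 3 was left out (adjusted p from 0.0519 to 0.111), and SCI passed without sham 1 (0.0269) or sham 3 (0.0287). The related factor Nfe2l2 stood at 75.6, 71.3 and 72.4 CPM in naive, 57.2, 68.3 and 74.8 in sham and 68.8, 67.3 and 66.7 in SCI, with log2 changes of -0.11 in SCI (adjusted p = 0.281) and -0.13 in sham (adjusted p = 0.198), and passed in neither. Pomp, the chaperone that completes the core, was near the limit of detection at 0.724, 0.8501 and 0.803 CPM in naive, 1.43, 2.26 and 1.94 in sham and 1.298, 0.8404 and 1.501 in SCI. Its log2 changes were 0.62 in SCI (adjusted p = 0.0625) and 1.20 in sham (adjusted p = 0.00135), and in SCI it passed without SCI 2 (0.81, adjusted p = 0.0261) or sham 1 (0.62, adjusted p = 0.045).

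**Figure D5:**
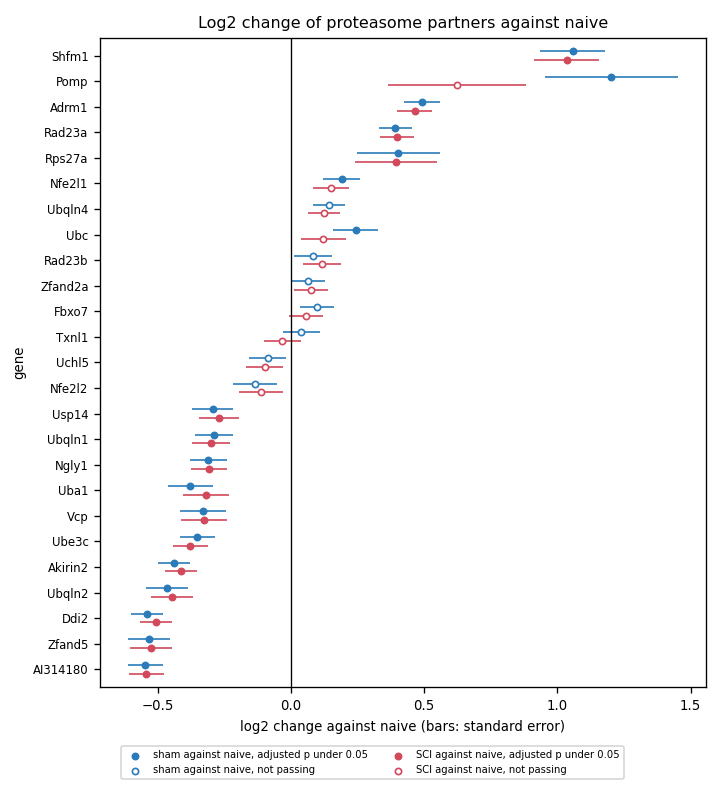
Log2 change of partner genes against naive, in sham (blue) and SCI (red), with SE bars from the edgeR fit; filled points have an adjusted p under 0.05. Shfm1 lies to the right in both, and AI314180, Zfand5 and Ddi2 farthest to the left in both.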

How the data were processed

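RNA of 9 libraries (3 naive, 3 sham, 3 SCI) was sequenced from both ends, per the labels' protocols with a TruSeq kit that does not mark strand, so a gene and its antisense partner share reads. The authors deposited raw read counts for 30446 genes, with no normalization. The submitters' processing notes name FastQC, Trimmomatic, TopHat2, HTSeq and DESeq2. Versions, genome build and annotation: not given in the sources used here.

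Groups came from the treatment label. All 9 libraries entered 1 fit of edgeR's quasi-likelihood test (version 4.0.16, R 4.3.3), with TMM scaling, the tool's own low-count filter, a mean for each group and 6 residual degrees of freedom. It gave log2 changes, SE and Benjamini-Hochberg adjusted p-values over 16627 genes, and a call is an adjusted p under 0.05. The series calls the libraries biological replicates, but the labels do not say whether each held 1 animal or several. The p-values thus reflect how these libraries vary, and how far that is the spread between animals is not known. CPM were computed from the scaled totals. The test was checked on simulated counts. The alternatives changed the scaling (RLE, upper quartile), the filter (none, strict), the tool (DESeq2 version 1.42.0, limma-voom version 3.58.1), the groups fitted, the threshold (a fold of at least 1.5) or the depth (thinned to the shallowest total), added the replicate number as a block, or omitted a library.

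Members and gene lists were chosen with earlier results of these data known. Values in every library are given for the catalytic subunits, activators and inhibitor, the 2 genes per other class with the smallest p for any group difference, the 3 with the smallest p between SCI and sham, and partners (the 6 with the smallest p, Pomp, Nfe2l1 and Nfe2l2). A gene that this rule takes is not reported here. Psmc6, Psmd1, Psmd2, Psmd5, Psmd14 and Tap1 were added after their values were seen. Promoter sequences and gene names are from RefSeq (GRCr8). Protein lengths were not analysed here. The partners Paaf1 and Ubb were not matched in the table.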

Additional observations from a re-analysis of the deposited data

How the results depend on the processing

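With a fold of at least 1.5 required as well, 4 proteasome genes rose and 1 fell in SCI against naive, and 6 rose and 1 fell in sham, since most changes were smaller. When each library was left out in turn, 22 to 29 genes rose and 3 to 5 fell in SCI against naive, and 27 to 33 rose and 2 to 4 fell in sham. The lowest counts of genes that fell (3 and 2) came without naive 1. Over 18 alternatives, the fold apart, 25 of the 34 calls in SCI (22 higher, 3 lower) and 29 of the 33 in sham (27 higher, 2 lower) passed each time, and all 34 and 33 kept their sign. Between SCI and sham 0 proteasome genes passed under any alternative. Without sham 1 or sham 3, 3 and 4 of the 44 proteins (6.82% and 9.09%) had an unadjusted p under 0.05, beside 6.34% and 13.8% of all genes in those fits, and over all genes 11 passed with no low-count filter. In sham against naive the log2 change of Psmf1 ran from -0.0697 to 0.0183 and that of Psmc3ip from -0.0068 to 0.278 as libraries were left out, and the cause of these changes of sign was not tested.

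With the replicate number as a block, 32 of 34 calls in SCI against naive (without Psma5 and Psmc3) and 32 of 33 in sham (without Psmc3) passed, the partner Nfe2l1 did not pass in sham (adjusted p = 0.0593), and 0 genes passed between SCI and sham. Deviations of same-numbered libraries correlated at -0.0946 to 0.124, and not every library correlated best with its own number (sham 1 did with naive 2, at 0.156). These deviations also hold the noise of each library, so they cannot show whether same-numbered libraries shared a day or a batch. The labels do not say.

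With counts thinned to the shallowest total, the calls of Psmc3ip (0.41, adjusted p = 0.0935), Psma5 (0.0885), Psmc3 (0.0529) and Psmc6 (0.069) in SCI against naive were lost, while Psmb8 still passed (0.77, adjusted p = 0.00293). Protein length could not be set beside the changes and was not run.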
